A study of Mus musculus with 3 samples.

Results

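The fibroblast growth factor (FGF) genes of the limb were examined for chromatin occupied by LMX1B, a LIM homeodomain transcription factor that specifies dorsal structures of the limb. The set held 10 genes of the 21523 protein-coding genes tabulated on the autosomes and chromosome X. They were the ligands Fgf8, Fgf10 and Fgf18, the receptors Fgfr1 and Fgfr2, the feedback inhibitors Spry1, Spry2, Spry4 and Dusp6, and the transcription factor gene Etv4. For each gene, the intervals (peaks) listed by the authors were taken whose midpoint lay in its domain. A domain took in the gene body and both flanks up to the neighbouring protein-coding genes, with a limit of 1 Mb per flank. The domains held 4 of the 1287 intervals of the first ChIP and 24 of the 4501 intervals of the validation ChIP.

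Both lists came from chromatin immunoprecipitation and sequencing (ChIP-seq) of C57BL/6 mouse limb buds at embryonic day 12.5. Buds of both limb pairs were combined (2 runs, 48 buds in each), and the polyclonal LMX1B antibody BMO8 was used in both ChIPs. The buds are wild type by the series title and by the track of the first ChIP; the validation ChIP's own track names no genotype. The input sample pooled chromatin of wild-type and mutant embryos, and no list of it was analysed here. Whole limb buds mix dorsal with ventral cells and mesenchyme with ectoderm, and which of these cells gave a signal is not resolved by the lists. Each ChIP is 1 sample, so no spread between replicates and no test of a difference can be given; sequencing depth is unknown, because the lists carry no read counts. An interval of one list was called shared when it overlapped an interval of the other by at least 1 bp. Each interval carries a summit score set by the authors, whose scale is not stated and which is read only within its own list; its median was 20 in the first ChIP and 11 in the validation ChIP. Coordinates are on mm10 and count from 1.

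In the limb bud, FGF8 is secreted by the ectodermal ridge at the tip and FGF10 by the mesenchyme beneath it, and each sustains production of the other. Ligands bind receptor tyrosine kinases, which activate the MAP kinase cascade through the adaptor FRS2. The cascade switches on ETS factors such as ETV4 and also its own brakes, the Sprouty proteins and the phosphatase DUSP6, so that transcripts of the brakes are widely used as readouts of FGF activity. Lmx1b itself is transcribed in the dorsal mesenchyme of the limb.

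Intervals listed in both ChIPs lay in the domains of the feedback inhibitors Dusp6, with 3, and Spry2, with 1, and of no other member. Thus 2 of 10 members held a first-ChIP interval, and the same intervals made them 2 of 10 with a shared interval. Among all protein-coding genes 6.11% held a first-ChIP interval in a domain made in the same way, and 3.45% a shared one. A validation interval lay in the domains of 7 of 10 members, against 15.2% of all protein-coding genes. Fgf8, Spry1 and Spry4 were the 3 members with no interval of either list.

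The members have long domains, with a median of 239.5 kb against 66.3 kb over all protein-coding genes, and long domains hold more intervals. Among the 8851 genes with a domain at least as long as that of Fgf8, the shortest of the members at 87.2 kb, 11.0% held a first-ChIP interval, 28.4% a validation interval and 7.20% a shared one. The 5 members with domains over 300 kb (Fgf10, Fgf18, Fgfr2, Spry2 and Dusp6) held 22 of the 24 validation intervals, at 6.49 per Mb of domain. The 5 with shorter domains held the other 2, at 3.23 per Mb. The boundary of 300 kb was set after the values were seen.

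Per Mb of domain, validation intervals numbered 5.99 over the 10 members (95% Poisson interval 3.84 to 8.91, 24 intervals in 4.01 Mb) and 1.76 over all protein-coding domains (1.71 to 1.82). Without Dusp6 the members had 5.22 per Mb (3.09 to 8.25). First-ChIP intervals numbered 0.998 per Mb over the members (0.272 to 2.56) and 0.503 over all protein-coding domains (0.476 to 0.531). The members' first-ChIP value rested on Dusp6: without it 1 interval was left, or 0.290 per Mb (0.00734 to 1.62). The Poisson intervals cover counting error only and treat intervals as independent, which neighbouring intervals need not be. They also take no account of the choice of members, which was made with earlier results of these data known.

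**Figure D1:**
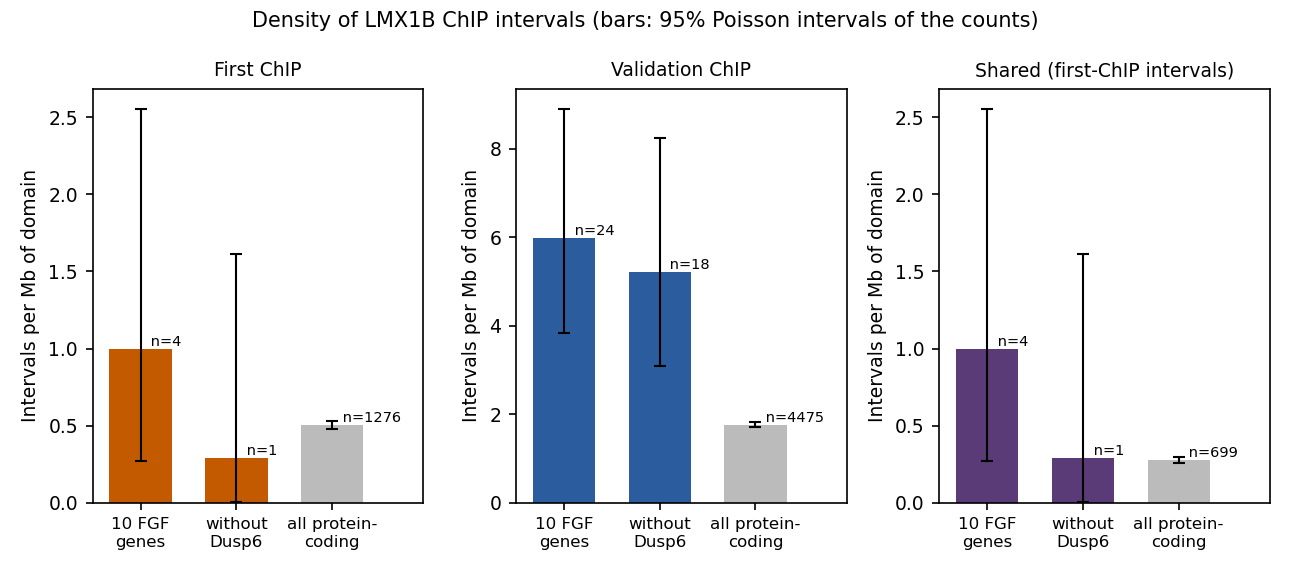
Intervals per Mb of domain (vertical axes, each panel with its own scale) over the 10 FGF genes, over the same genes without Dusp6 and over all protein-coding genes; error bars are 95% Poisson intervals and n is the number of intervals. In the validation ChIP the members stood at 5.99 and all protein-coding domains at 1.76 per Mb, while without Dusp6 the first-ChIP and shared values of the members were 0.290 per Mb on 1 interval.

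The scores in the domains lay below the highest of each list and varied in rank. In the first ChIP they ran from percentile 40 of the list (score 19) to percentile 81.2 (score 25). In the validation ChIP they ran from percentile 4.5 (score 8) to percentile 94.2 (score 21). The 4 first-ChIP intervals had scores of 19, 20, 22 and 25, with 2 above the list median, where the whole list ran from 12 to 86. The 24 validation intervals had a median score of 11, the same as the whole list, and ran from 8 to 21, against 6 to 55 in the whole list. The 4 shared ones scored 13, 14, 16 and 16, and the 20 unshared ones had a median of 10.5. Shared intervals made up 4 of 24 validation intervals in the domains (16.7%, 95% Wilson interval 6.68 to 35.9), against 15.6% of the whole list (14.5 to 16.7). All 4 first-ChIP intervals were shared (100%, Wilson interval 51.0 to 100), against 54.9% of the whole list (52.2 to 57.6). With so few intervals, neither share could be told from that of its list.

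**Figure D2:**
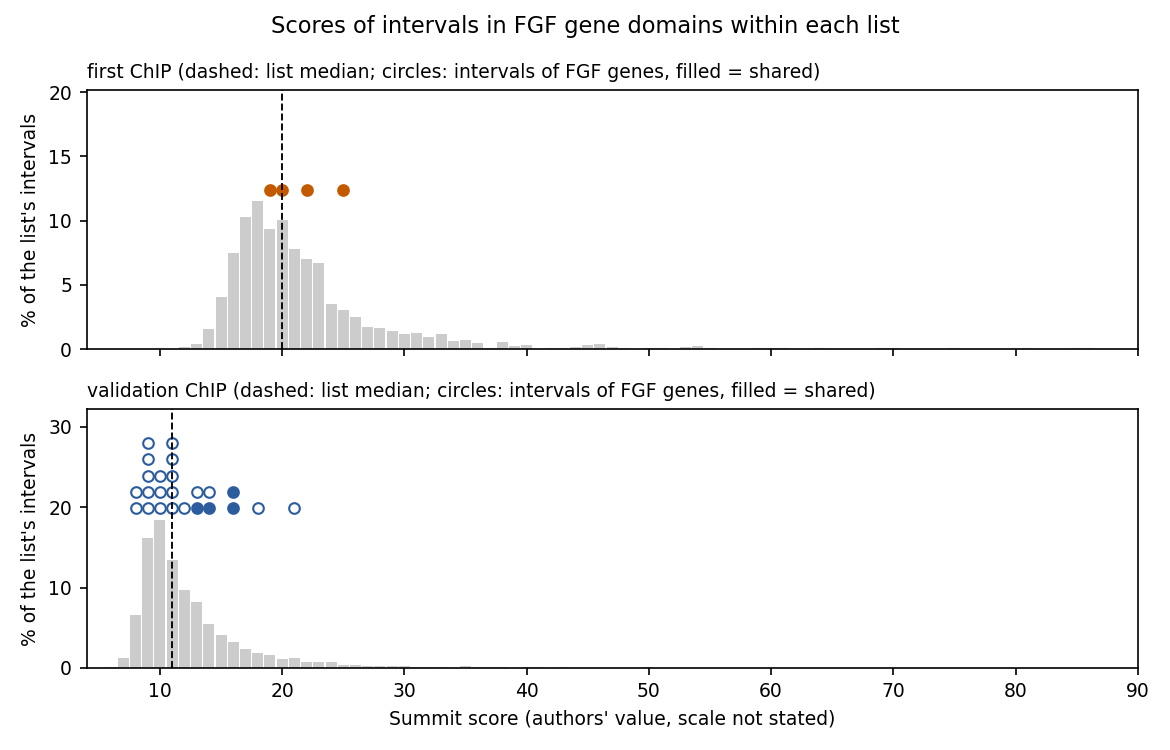
Share of all intervals in a list (grey bars, percent) at each summit score (horizontal axis), for the first ChIP above and the validation ChIP below; circles mark intervals in FGF gene domains, filled where shared, and dashed lines mark list medians of 20 and 11. The members' scores lay between 19 and 25 in the first ChIP and between 8 and 21 in the validation ChIP. The highest scores of the lists were 86 and 55.

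Among the ligands, no interval was listed in both ChIPs. Fgf10, the mesenchymal ligand without which no limb forms, lies on the plus strand of chromosome 13 at 118714699 to 118792573, in a domain of 948 kb between Mrps30 and Nnt. It held 4 validation intervals and no first-ChIP interval. At 118713462 to 118713940 (score 9), a midpoint lay 0.998 kb upstream of the start site. The interval at 118746390 to 118746970 (score 11) lay in the gene body, 32.0 kb past the start site; whether in an exon or an intron was not resolved, here or for the other intervals in gene bodies. Those at 118820212 to 118820525 (score 11) and 118982382 to 118982964 (score 9) lay outside genes, 27.8 kb and 190 kb beyond the downstream end of Fgf10. The upstream interval also falls in the domain of Mrps30, and those beyond the downstream end in that of Nnt. Each of the 4 scored at or below the validation median of 11. The nearest first-ChIP interval, at 118387072 to 118387344 (score 17, unshared), straddled the end of Mrps30 at the edge of the domain, 327 kb from Fgf10.

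Fgf18, a ligand with known roles in cartilage and bone growth, lies on the minus strand of chromosome 11 at 33116970 to 33147400. Its 328 kb domain held a single validation interval, at 33149032 to 33149540 (score 10), 1.89 kb upstream of the start site in the gap of 5.10 kb to Npm1. Because Npm1 borders the same gap, the interval also falls in the domain of Npm1, which encodes the nucleolar protein nucleophosmin. No first-ChIP interval lay within 500 kb of Fgf18.

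Fgf8, the ligand of the ectodermal ridge, lies on chromosome 19 at 45736491 to 45742941. Its domain of 87.2 kb ends at Fbxw4 on one side and Npm3 on the other and held no interval. Fbxw4 is known to carry limb enhancers of Fgf8 within its body, which the domain leaves out. In Fbxw4 a validation interval at 45628524 to 45629228 (score 20, above 11 of the list median) was listed 108 kb from Fgf8, and the first ChIP had none there. Farther away, in Btrc, a shared interval lay at 45475985 to 45476382 in the first ChIP (score 20) and at 45475988 to 45476691 in the validation ChIP (score 21), 260 kb from Fgf8.

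The receptors likewise held validation intervals and no first-ChIP interval. Fgfr2, whose isoforms serve ectoderm and mesenchyme as receptors for different ligands, lies on the minus strand of chromosome 7 at 130162451 to 130266808, in a domain of 756 kb. It held 5 validation intervals with scores of 10 to 14. One was in the gene body, at 130257908 to 130258482 (score 10), 8.61 kb past the start site. The others lay on the downstream side, in the gap to Wdr11: at 130064278 to 130064863 (score 11), 97.9 kb from the gene, at 129962520 to 129963130 (score 10), 200 kb away in the long noncoding RNA gene Gm4265, at 129941315 to 129941808 (score 14), 221 kb away, and at 129754880 to 129755286 (score 12), 407 kb away. These intervals of the gap also fall in the domain of Wdr11. The gap is 527 kb, so the one 407 kb from Fgfr2 lay nearer to Wdr11. No interval lay within 1 kb of an end of Fgfr2, and the nearest first-ChIP interval was 2858 kb away. Fgfr1, the main receptor of limb mesenchyme, lies on chromosome 8 at 25518759 to 25575718. Its domain of 151 kb held a single validation interval, at 25543335 to 25543787 (score 13), inside Fgfr1 and also inside the long noncoding RNA gene Gm31288, which overlaps it. The nearest first-ChIP interval was 689 kb from Fgfr1.

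Dusp6 encodes a phosphatase that inactivates the MAP kinase ERK, and its transcript follows FGF signalling in the limb bud. It lies on the plus strand of chromosome 10 at 99263231 to 99267489, in a domain of 560 kb that runs 65.2 kb upstream to Poc1b and 490 kb downstream to Csl. Of the members it had the most intervals of the first ChIP, 3, and all 3 were shared. The same number of shared intervals or more was found in 73 protein-coding domains (0.339%), and 116 (0.539%) had at least 3 first-ChIP intervals. Within 50 kb of the gene body, 13 genes (0.0604%) had 3 or more shared intervals, Dusp6 with 3 among them. That window also takes in more sequence at longer genes, and genes close together can count the same intervals. Dusp6 and Spry2 each had 6 validation intervals, a number reached by 186 protein-coding domains (0.864%). These shares of domains are over domains of all lengths, and long domains hold more intervals. The Dusp6 domain was longer than 92.4% of protein-coding domains, and that of Spry2 was longer still. How rare such numbers are among domains of like length was not counted. The cuts of 3 and 6 are the counts of Dusp6 and Spry2 themselves, so the shares only rank values already seen.

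The interval at the Dusp6 start site ran over 99263016 to 99263447 in the first ChIP (score 20) and over 99262791 to 99263516 in the validation ChIP (score 16). The first-ChIP interval lay wholly inside the validation interval. Its midpoint was at the annotated start site itself, and that of the validation interval was 78 bp upstream. The summits were 55 bp and 191 bp upstream of the start site in the first and validation ChIPs, 136 bp apart. Among all protein-coding genes, 0.321% had a shared first-ChIP midpoint within 1 kb of a gene end, 1.51% any first-ChIP midpoint and 2.67% a validation midpoint. Of the 10 members, Dusp6 was the one with a first-ChIP midpoint that near, and Dusp6 and Fgf10 were the ones with a validation midpoint. The sequence of the 250 bases before the start site, at chr10:99262981-99263230 on the plus strand, is given because both summits fall in it. It was taken from RefSeq (GRCm38.p6), and capitals mark its match to a searched motif.

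Dusp6 promoter: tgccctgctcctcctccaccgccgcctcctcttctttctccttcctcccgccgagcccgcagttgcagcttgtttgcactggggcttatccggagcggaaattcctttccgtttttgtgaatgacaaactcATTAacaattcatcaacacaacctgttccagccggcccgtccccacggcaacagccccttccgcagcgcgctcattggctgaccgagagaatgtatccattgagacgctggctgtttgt

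The motifs searched on both strands were TAATTA and TTAATTA for LIM homeodomain factors, TAAT for the core of homeodomain sites, CAGGAAGT, ACCGGAAG and CCGGAAGT for ETS factors, TGAGTCA for AP-1, CACCTG for E-box factors and GGGCGG for SP/KLF factors. TAAT is part of both longer homeodomain motifs, and ACCGGAAG overlaps CCGGAAGT. In these 250 bases TAAT had 1 match, on the minus strand (printed as ATTA), with its first base 119 bases before the start site. That core was found in 54.9% of the 250-base stretches before the start sites of the 32851 promoters in the table. TAATTA, found in 4.84% of them, and the remaining motifs had no match, which says only that these letters are not in this window. The window had a GC content of 56.4% and 16 CpG dinucleotides, against medians of 52.4% and 6 over all promoters.

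The next Dusp6 interval lay downstream, at 99268760 to 99269190 in the first ChIP (score 22) and at 99268746 to 99269333 in the validation ChIP (score 13). It began past the end of Dusp6, with midpoints 1.49 kb and 1.55 kb from that end, inside the long noncoding RNA gene Gm34921 (99266864 to 99270899), which overlaps the downstream end of Dusp6. Its summits lay 32 bp apart, the closest of the 4 shared pairs. The last shared interval was outside genes, at 99299174 to 99299568 in the first ChIP (score 19) and at 99298706 to 99299493 in the validation ChIP (score 14), 31.9 kb and 31.6 kb beyond the gene. These overlapped by 320 bp and their summits were 320 bp apart. The 3 shared intervals thus spanned the start site, the downstream flank and a place about 36.1 kb past the start site.

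Further downstream the validation ChIP listed 3 more intervals that the first ChIP did not. They were at 99359414 to 99360055 (score 21), at 99390497 to 99391102 (score 18) and at 99615622 to 99616255 (score 11, in the long noncoding RNA gene Gm20110). They lay 92.2 kb, 123 kb and 348 kb beyond Dusp6, in the same gap to Csl. The first pair scored above each of the 3 shared Dusp6 intervals in the validation list, and 21 was the highest validation score in any member's domain. All validation intervals of Dusp6 but the one at the start site also fall in the domain of Csl, a citrate synthase-like gene, and that one falls in the domain of Poc1b.

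**Figure D3:**
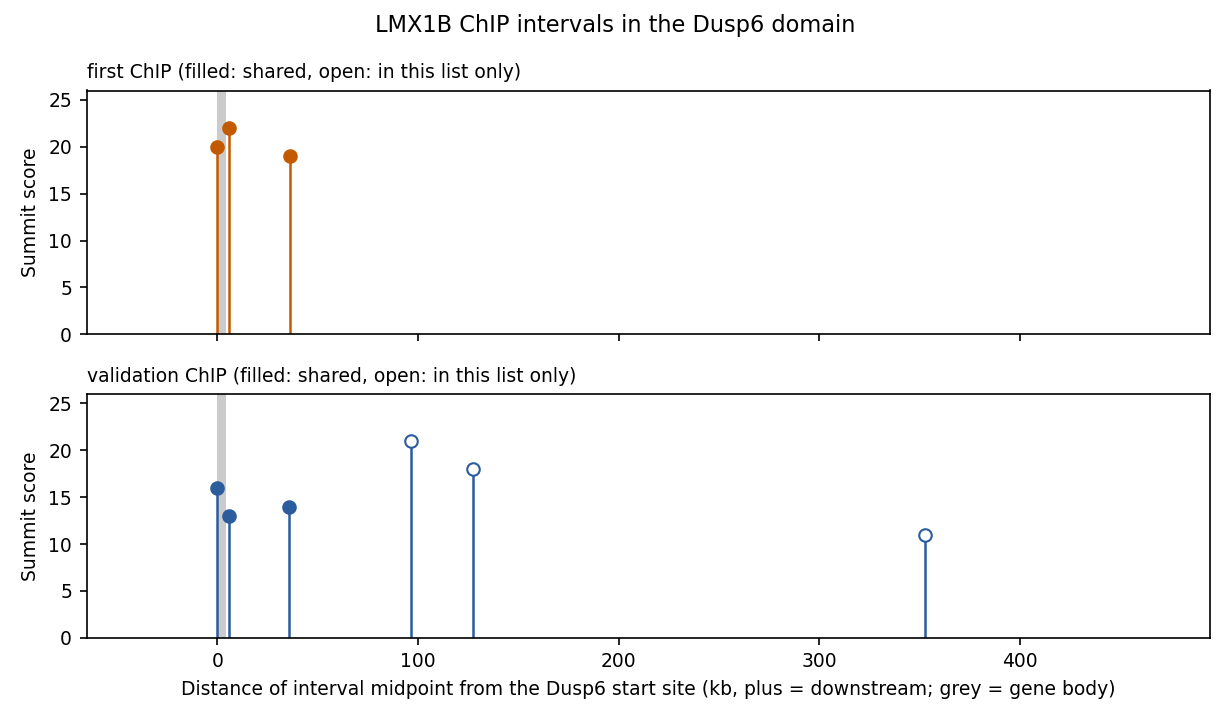
Summit score (vertical axis) of each interval in the Dusp6 domain by the distance of its midpoint from the start site (horizontal axis, kb, downstream to the right), in the first ChIP above and the validation ChIP below; filled points are shared and the grey band is the gene body. The 3 first-ChIP intervals, with scores of 19 to 22, each have a validation partner, and the validation intervals with scores of 21, 18 and 11 have none.

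Spry2 encodes a Sprouty protein that restrains receptor tyrosine kinase signalling. It lies on the minus strand of chromosome 14 at 105891947 to 105896819, in a domain of 797 kb between Ndfip2 and Trim52. Its shared interval lay outside genes, 320 kb beyond the downstream end of Spry2, at 105572150 to 105572591 in the first ChIP (score 25) and at 105571796 to 105573053 in the validation ChIP (score 16). The first-ChIP score was the highest of the members. The validation interval was 1258 bp wide, against a list median of 571 bp, and held the whole first-ChIP interval; the summits lay 256 bp apart. The long noncoding RNA gene 9330188P03Rik had the nearest gene end, 17.2 kb away, and the interval also falls in the domain of Ndfip2. The gap between Spry2 and Ndfip2 is 583 kb, so the shared interval lay nearer to Ndfip2 than to Spry2. The other 5 validation intervals scored 8 to 11. On the downstream side they lay 92.4, 386, 445 and 514 kb from Spry2, at 105799321 to 105799754 (score 8), 105505348 to 105505690 (score 9), 105446975 to 105447816 (score 11) and 105377631 to 105378153 (score 8). Those 386 kb or more from Spry2 were likewise nearer to Ndfip2. The remaining interval was 96.5 kb upstream, at 105993125 to 105993520 (score 9). No interval lay in Spry2, and the nearest was the one at 92.4 kb.

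Across the 4 shared pairs of the members, summits were 32, 136, 256 and 320 bp apart, so 1 of 4 pairs lay within 100 bp. Over all 707 shared first-ChIP intervals the median was 64 bp, and 523 (74.0%) lay within 100 bp. When overlap of at least 50% of both intervals was asked, the 2 Dusp6 intervals nearest the gene remained of the 4. A further list among the deposited files, named Active Regions, held all 4 first-ChIP intervals among its 735 regions. How much of the whole first-ChIP list it holds was not counted. In these domains it took in every shared interval and none of the 20 unshared validation intervals. It thus repeats the sharing call here and is not separate evidence.

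Spry1 and Spry4, the other Sprouty genes of the set, had no interval in domains of 135 kb and 136 kb. Spry1 lies on the plus strand of chromosome 3 at 37639947 to 37644599. Shared intervals flanked it beyond the borders of its domain: one 257 kb away inside Fgf2, which encodes another FGF ligand, and one 291 kb away on the other side, outside protein-coding genes, at 37934871 to 37935477 in the first ChIP (score 25) and 37934741 to 37935555 in the validation ChIP (score 23). Spry4 lies on chromosome 18 at 38586247 to 38601347, and its domain ends 0.269 kb from the gene, at Arhgap26. Inside Arhgap26 the first ChIP listed an unshared interval 30.6 kb from Spry4 (38631783 to 38632092, score 16). A shared one was 112 kb from Spry4, at 38713664 to 38713977 (first-ChIP score 18) and 38713516 to 38714091 (validation score 13).

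Etv4 encodes an ETS transcription factor switched on by FGF signalling in the limb mesenchyme. It lies on chromosome 11 at 101769747 to 101785310 and held a single validation interval, at 101813212 to 101813682 (score 9), outside genes in the gap of 92.2 kb to Meox1 and 28.1 kb from Etv4. That interval also falls in the domain of Meox1. The first ChIP had none in the Etv4 domain of 110 kb, and its nearest, at 101442157 to 101443086 in Rpl27 (score 55, shared), was 327 kb away. Rpl27 encodes a ribosomal protein.

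Domains end at the neighbouring gene, and several intervals near members lay just beyond. In a window of 500 kb on both sides of the gene body, whatever genes lie in it, 7 of 10 members had a first-ChIP interval, against 38.9% of all protein-coding genes. A validation interval lay in the windows of 10 of 10 members, against 66.6%, and a shared one in those of 6 of 10, against 19.0%. The members with a shared interval in that window were Fgf8, Spry1, Spry2, Spry4, Dusp6 and Etv4. The shared intervals of Fgf8, Spry4 and Etv4 lay in the bodies of other genes, as did the shared interval of Spry1 inside Fgf2. The interval in Fgf2 is counted again below among the other pathway genes. To which gene an interval belongs was not tested.

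**Figure D4:**
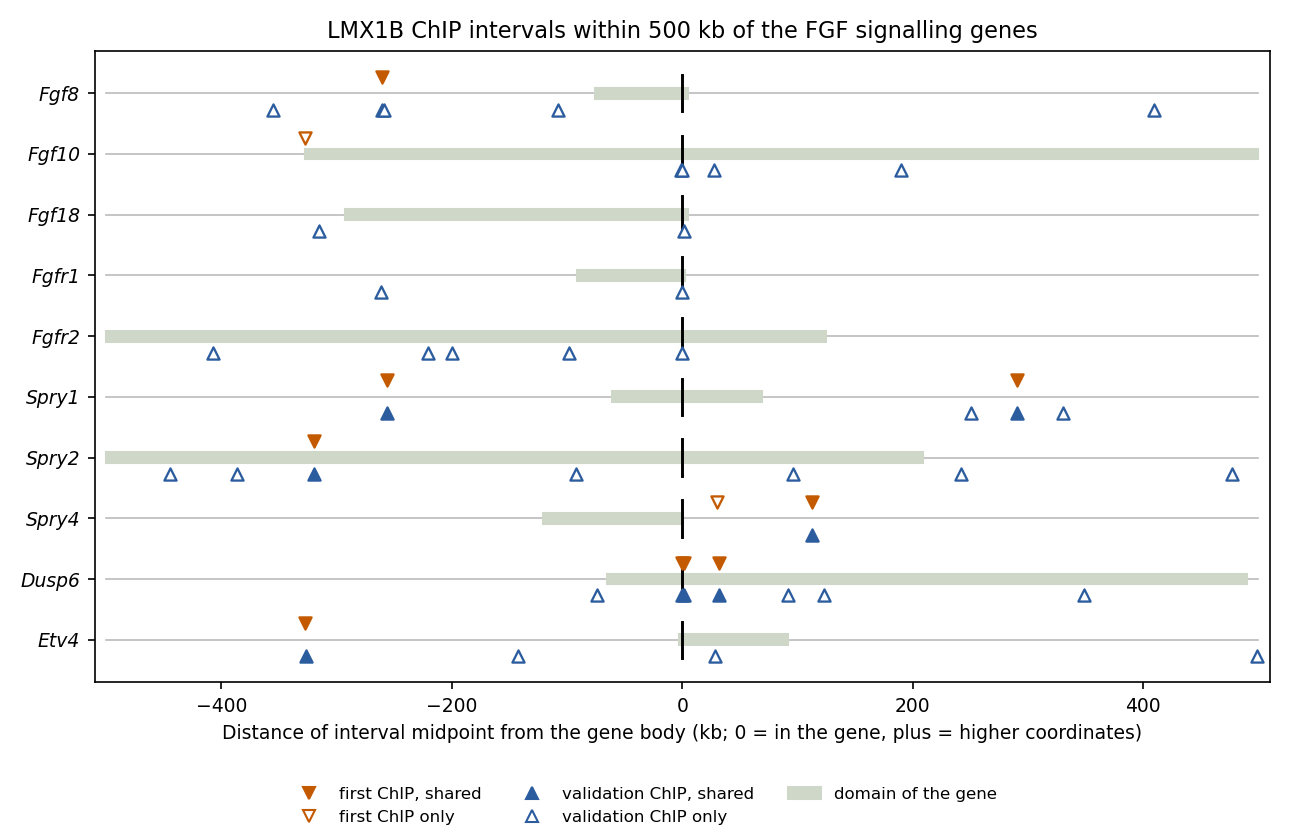
Intervals within 500 kb of each member, by the distance of their midpoint from the gene body (horizontal axis, kb, higher coordinates to the right, black tick at the gene); triangles above a line are first-ChIP and those below it validation-ChIP intervals, filled where shared, and green bars are domains. Shared intervals lay inside the domains of Dusp6 and Spry2, and outside the domains of Fgf8, Spry1, Spry4 and Etv4; the filled validation triangle of Fgf8 at -260 kb lies behind an open one.

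The same counts were made for 49 other FGF pathway genes. A first-ChIP interval lay in 2 of 49 domains, against 6.11% of all protein-coding genes, and both were shared, against 3.45%; these counts are near the share over all genes. A validation interval lay in 15 of 49 domains, against 15.2% of all protein-coding genes. The shared ones were in Fgf2, at 37383228 to 37383586 on chromosome 3 (first-ChIP score 19, validation score 12), and 65.1 kb from Flrt2, at 95850044 to 95850626 on chromosome 12 (first-ChIP score 24, validation score 10). Flrt2 encodes a cell surface protein of a family that binds FGF receptors. Of 19 other ligands, 2 held a validation interval, Fgf2 and Fgf9 (highest score 11), whereas Fgf4, which like Fgf8 is made by the ectodermal ridge, held none in 53.2 kb. Of 5 other receptors and co-receptors, 1 did, Kl (10). Of 6 other feedback inhibitors, 5 did, with the highest scores at Il17rd (15), Spred1 (14) and Spred2 (13), and none was shared. Among the other ETS genes Etv1 held a validation interval (16, in the gene body) and Etv5 none. Of 12 genes of signal transduction, 2 held one or more, among them Gab1 with 2 intervals (highest score 14). Of 5 cell surface modulators, 4 did, with the highest at Flrt2 (18), Hs2st1 (15) and Ext1 (14). The 5 feedback inhibitors with a validation interval have long domains. These are 112 kb (Il17rd), 210 kb (Dusp5), 357 kb (Spred1), 658 kb (Dusp4) and 1043 kb (Spred2). Of all genes with a domain of at least 87.2 kb, 28.4% held a validation interval. Il17rd held 4, the nearest in its gene body, and the others held 1 each. Those lay 0.779 kb (Dusp4), 58.2 kb (Dusp5), 149 kb (Spred1) and 662 kb (Spred2) from the gene. Whether domain length accounts for these intervals was not tested.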

How the data were processed

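The submitters' processing notes name the aligner BWA and the build mm10. The BWA version and how peaks were called are not stated in the sources used here. The deposited lists give, for each of the 2 ChIP samples, intervals and a whole-number summit score per interval, set by the authors on a scale that is not stated. Both lists were read from the later deposited set, by track name. The first list there matches the earlier deposit in all 1287 intervals; 1 summit differs, by 16 bp. The labels do not say whether the ChIPs came from separate chromatin.

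Gene bodies came from a RefSeq table (GRCm38.p6, the coordinates of mm10), without 340 entries that start before 3 Mb. Start sites and strands came from the RefSeq promoter table (250 bases before to 50 after a start site), which matched 6 of the 10 genes; for the others strand was not used. Domains, overlaps and distances were computed with Python 3.11.15, pandas 2.3.3 and scipy 1.17.1 and were tested on simulated data. No test between samples was possible. Motifs were sought as exact matches in promoters; interval sequences were not used here. All members were named, with the other pathway genes that hold a shared interval or, in each role, the 3 with the highest score; 1 gene that the rule would name is not reported here. Members and lists were chosen with earlier results of these data known.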

Additional observations from a re-analysis of the deposited data

How the results depend on the processing

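Of 48 values recomputed under other planned settings, 29 stayed within 1.5-fold (densities within their 95% Poisson interval) and none has a direction to reverse. The planned settings that moved a value took in more or less sequence or fewer intervals, or asked for a closer match between the lists. Why each value moved was not tested. With domains of at most 250 kb beyond the gene, 1 member had a first-ChIP and a shared interval. With windows of 500 kb, 7 members had a first-ChIP and 6 a shared interval, over 11 first-ChIP and 41 validation intervals. With windows of 100 kb, 1 member had a shared interval and validation intervals numbered 15. Of the 49 other pathway genes, 8 had a first-ChIP interval and 25 a validation interval in such a window. Shares over all protein-coding genes were counted for the 500 kb windows and not for the other changed windows, domains or scores. Those other counts thus have no background beside them. With domains that end at the next gene of any kind, 1 first-ChIP interval, at 1 member, was left, which was shared, and 8 validation intervals. With intervals at or above the median score, validation intervals numbered 14, or 3.49 per Mb, and other pathway genes with a first-ChIP interval 1. Shared intervals numbered 2 with 50% overlap of both and 1 with summits within 100 bp. That summit spacing was met by 74.0% of all 707 shared first-ChIP intervals. Without Dusp6, chosen after seeing the data, 1 first-ChIP interval at 1 member, which was shared, was left. The values of this setting are not among the 48: 3 moved and 4 stayed. No paired analysis was possible because each ChIP is 1 sample. Interval lists without read counts leave depth unknown, so an empty domain does not show that no binding took place.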

Other observations

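Of the 13 protein-coding genes with at least 3 shared first-ChIP intervals within 50 kb of the gene body, Dusp6 was the only one of the 10 FGF genes. Hdac9 and Dnm3 had the most, 7 each, followed by Pard3b and Lrmda with 5. The window is added to the gene body, so a gene longer than Dusp6 (4.26 kb) is counted over more sequence. Genes that lie close together can count the same intervals. These genes were picked out after their values were seen.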
